A study of Chlorella variabilis with 6 samples.

Results

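The count tables of Chlorella variabilis name most genes by a locus tag that starts with CHLNCDRAFT. A small set of 34 genes, out of 9625 in each table, carries a gene symbol in its place, and these 34 genes are described here. They were taken by their names alone, with no use of their counts, though with earlier results of these data known. Both groups are of the unicellular green alga Chlorella variabilis NC64A, grown in batch culture in a light and dark cycle and harvested at 14 days post inoculation (dpi), with 1 h of light left. LOG OX1 is a line transformed by electroporation with CvarLOG1, the alga's LONELY GUY gene for a cytokinin-activating enzyme, in the vector pMDC32 under a constitutive viral promoter and selected on hygromycin. WT is the wild type strain. RNA from 3 biological replicates of each was sequenced. LOG OX1 is 1 line, so effects of the transgene, of its place in the genome and of the selection cannot be told apart. The study reports that cultures of this line grew more slowly than WT and held fewer cells at the harvest age. It also reports more cells in S phase and fewer in G2/M shortly before dark. Whether the differences below follow from the growth state of the cultures was not tested.

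By their symbols the 34 genes fall almost entirely into a pair of metabolic themes. The first is the plastid isoprenoid route. In the MEP pathway, pyruvate and glyceraldehyde 3-phosphate are turned into isopentenyl diphosphate and its isomer, which are joined into prenyl chains and from there into carotenoids, sterols and the side chain of chlorophyll. The second is anaerobic metabolism, in which green algae break down pyruvate to formate, ethanol, acetate or lactate, or pass electrons to a hydrogenase that releases hydrogen. The tables give symbols and no product names, so, apart from that of GLYD1, the roles stated here are the usual readings of these symbols in green algae and plants, and they were not checked against a sequence. The 34 genes were placed in 8 role groups by symbol, except GLYD1, which was placed by the study's homology label. These are the MEP pathway (8 genes), prenyl chains and squalene (3), carotenoid synthesis (4), the xanthophyll cycle with the early light-induced protein ELIP (3), hydrogenase and its maturation (4), fermentation (8), glycerol (2) and other genes (2).

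Levels are given as CPM, the counts of a gene scaled to one common library total, and are not corrected for gene length, so no level is compared between genes. Totals lay between 10180885 and 12444029 in LOG OX1 and between 10743741 and 12546100 in WT. The introduced gene, CvarLOG1 (CHLNCDRAFT_28106), had 38.2, 40.5 and 35.8 CPM in LOG OX1, against 20.3, 20.0 and 23.5 CPM in WT, given here and below in the order of the replicate numbers. The groups did not overlap. The log2 fold changes and adjusted p-values below come from edgeR's quasi-likelihood test on TMM-normalized counts, fitted and adjusted over the 9101 genes that passed its filter on low counts. Called genes had to pass 2 thresholds, an adjusted p-value no higher than 0.05 and a change of 1.5-fold or more in either direction. The SE is that of the log2 fold change.

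Of the 34 genes, 32 passed the filter. Only HYD2 and ACK1 did not, and both were close to silent in all 6 libraries. One gene, DXS, was called higher in LOG OX1, and 8 genes were called lower, namely GPS, LCYB, ZEP, ELIP, ADHE1, ADHE2, PDC2 and GLYD1. Among all genes tested, 14% were called higher and 14.6% lower, so the 9 calls in 32 genes, 28.1%, stand beside 28.6% of all genes called either way. Without the fold threshold, 11 of the 32 genes were higher and 14 lower with an adjusted p-value no higher than 0.05, against 35.7% of all genes higher and 36.1% lower. The median log2 fold change of the 32 genes was -0.05, and that of all genes tested was 0.00. With upper-quartile factors in place of TMM, the median of all genes moved to 0.11, and 15 of the 32 genes were then higher and 11 lower at that p-value. The CPM of the groups did not overlap for 28 of the 32 genes, which held for 74% of all genes tested. Together the 34 genes took 0.655%, 0.670% and 0.665% of all counts in LOG OX1, against 0.681%, 0.673% and 0.676% in WT. The replicates were close for the 32 genes, with a coefficient of variation of CPM between 0.668% and 13.0% in LOG OX1 (median 3.89%) and between 0.770% and 7.97% in WT (median 3.19%).

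**Figure D1:**
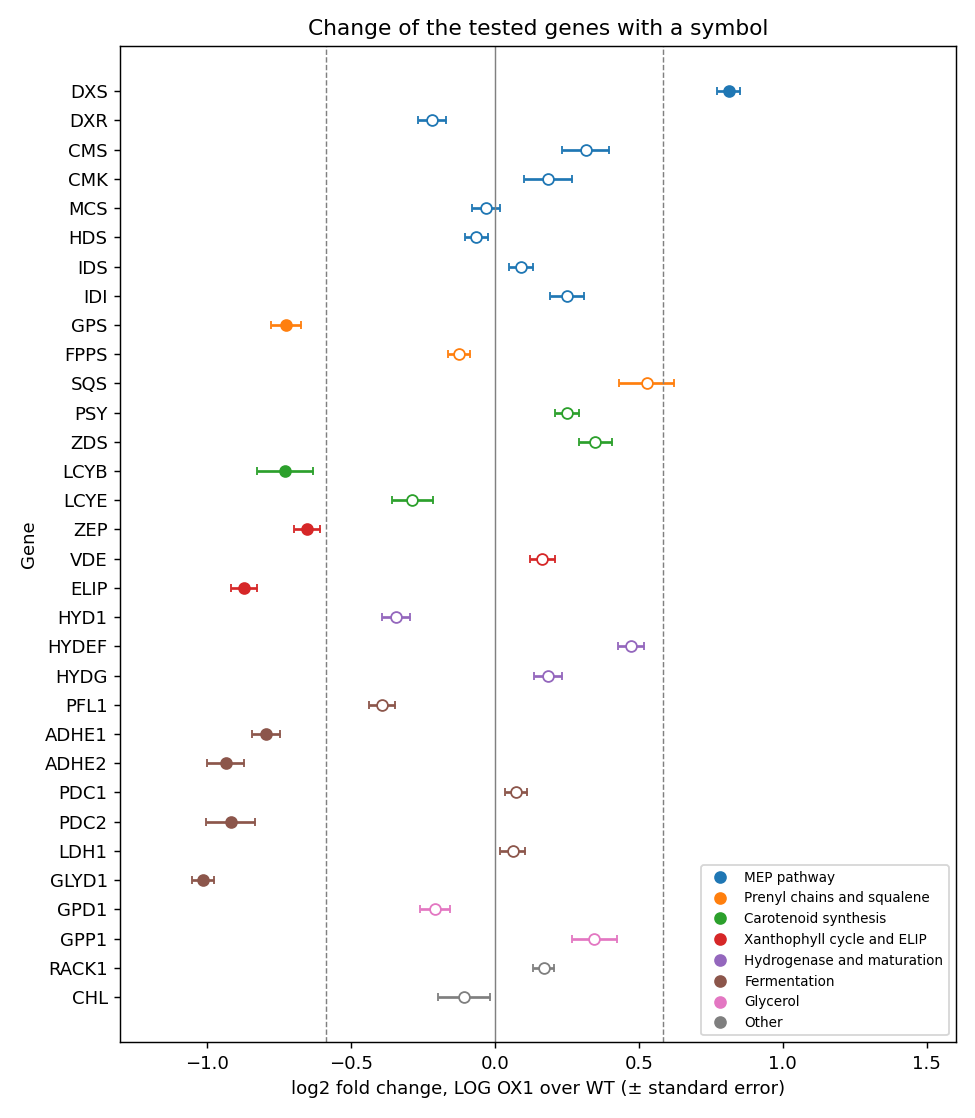
The log2 fold change of LOG OX1 over WT for the 32 tested genes, with its standard error (SE), from edgeR's quasi-likelihood fit (3 libraries a group). Colors give the role groups, filled points the 9 called genes, and dashed lines a fold change of 1.5 either way. DXS, at 0.81, is the single filled point to the right of 0, and the lowest, GLYD1, lies at -1.01.

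In the MEP pathway a single gene stood apart, and it was the first step. DXS, 1-deoxy-D-xylulose 5-phosphate synthase, which joins pyruvate and glyceraldehyde 3-phosphate and is widely regarded as a main point of control of the pathway in plants, had 772, 800.3 and 780.2 CPM in LOG OX1, against 438, 456 and 466 CPM in WT. Every LOG OX1 library was far above every WT library. The log2 fold change was 0.81 (SE 0.040, adjusted p = 1.74e-11, edgeR), a 1.76-fold increase. It was called in each alternative that used the threshold of 1.5, with log2 fold changes between 0.78 and 0.92.

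The next enzyme, DXR, the reductoisomerase that forms methylerythritol phosphate, changed in the other direction. It had 106, 104 and 100.5 CPM in LOG OX1, against 125, 115 and 128 CPM in WT, with no overlap. The decrease was small, with a log2 fold change of -0.22 (adjusted p = 0.000732, edgeR), and it did not pass the test with upper-quartile factors (adjusted p = 0.0622, edgeR). Within each library there were 7.25, 7.71 and 7.76 DXS counts for each DXR count in LOG OX1, against 3.51, 3.98 and 3.65 in WT. This ratio needs no scaling between libraries, and its mean was 2.04 times higher in LOG OX1. It is one of 8 ratios picked after the values were seen and is given as a description, with no test.

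The remaining MEP genes moved little. CMS, which attaches a cytidyl group to methylerythritol phosphate, had 33.4, 38.2 and 32.7 CPM in LOG OX1, against 27.5, 30.0 and 27.7 CPM in WT, a log2 fold change of 0.32 (adjusted p = 0.00252, edgeR). IDI, the isomerase that balances isopentenyl and dimethylallyl diphosphate, had 67.3, 66.9 and 62.5 CPM in LOG OX1, against 58.9, 51.8 and 57.4 CPM in WT, with a log2 fold change of 0.25 (adjusted p = 0.00103, edgeR). For both genes the lowest LOG OX1 library was above the highest WT library, and neither reached 1.5-fold. CMK, the kinase that follows CMS, had 22.5, 20.2 and 23.0 CPM in LOG OX1, against 20.1, 18.9 and 19.5 CPM in WT, and missed the threshold (adjusted p = 0.0575, edgeR).

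MCS, which closes the cyclic diphosphate, changed the least of the 8 genes. It had 66.6, 65.3 and 66.9 CPM in LOG OX1, against 66.6, 69.9 and 69.5 CPM in WT, with a log2 fold change of -0.03 (SE 0.049, adjusted p = 0.595, edgeR). The last reductive steps did not pass the test either. HDS, which opens the ring, had 153, 156 and 155 CPM in LOG OX1, against 163, 169 and 162 CPM in WT (adjusted p = 0.173, edgeR). IDS, which releases isopentenyl diphosphate, had 242, 243 and 251 CPM in LOG OX1, against 229, 233 and 239 CPM in WT (adjusted p = 0.0522, edgeR). In all, 4 of the 8 MEP genes passed the test, 3 higher and 1 lower, and 1 was called. These are 50% passing and 12.5% called, beside 71.8% passing and 28.6% called among all genes tested. With upper-quartile factors CMK and IDS passed it too, as increases with log2 fold changes of 0.30 and 0.20. CMK also passed without LOG OX1 replicate 2 (adjusted p = 0.0324, edgeR), and IDS without LOG OX1 replicate 1 (adjusted p = 0.0428, edgeR) or WT replicate 3 (adjusted p = 0.0254, edgeR). Summed over the 8 genes, the pathway had 1476 ± 15.8 CPM in LOG OX1 and 1146 ± 21.1 CPM in WT (SD, n = 3 each; two-sided exact permutation test, p = 0.1). With 3 libraries against 3 no smaller p is possible. The summed level of the group thus differed by 330 CPM, and the mean of DXS alone differed by 331 CPM.

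**Figure D2:**
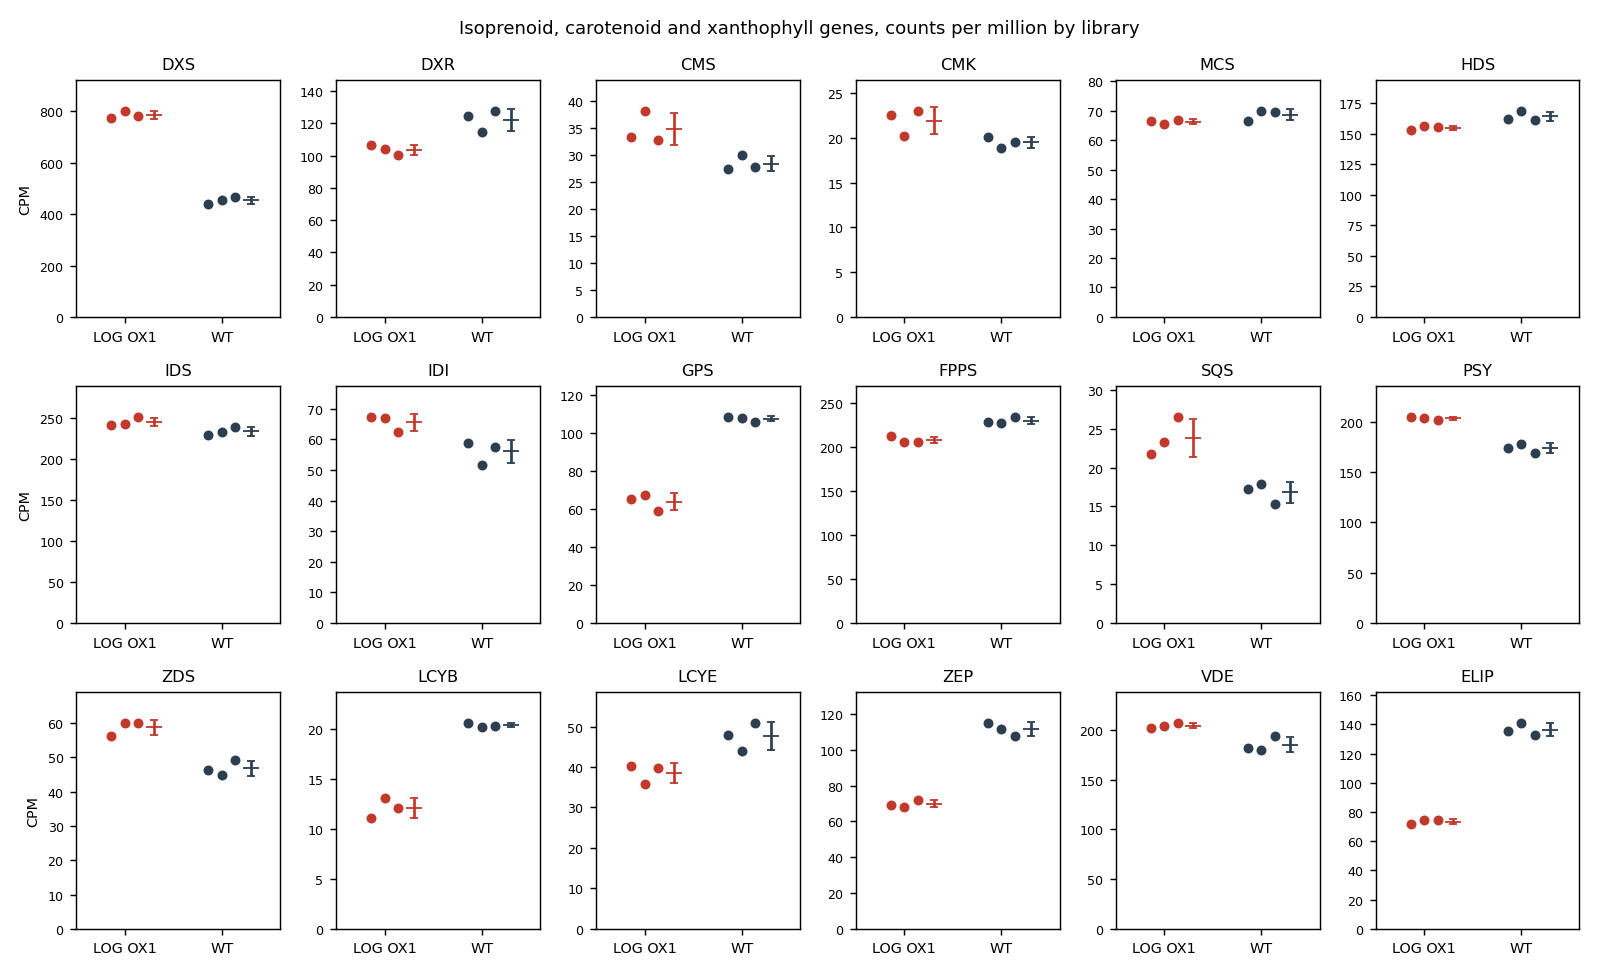
CPM in each library for the 18 genes of the MEP pathway, prenyl chains, carotenoid synthesis and the xanthophyll cycle with ELIP, with LOG OX1 in red and WT in dark blue. Points are the 3 libraries of a group, and the bar beside them is the mean with its SD. DXS is the gene with LOG OX1 near 784 CPM and WT near 453 CPM, and GPS, LCYB, ZEP and ELIP are the 4 with LOG OX1 lower by more than 1.5-fold.

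The prenyl chain genes diverged. GPS, read as geranyl diphosphate synthase, which makes the first condensation of the C5 units, had 65.4, 67.3 and 58.9 CPM in LOG OX1, against 108, 108 and 106 CPM in WT. All LOG OX1 libraries lay far below all WT libraries. The log2 fold change was -0.73 (SE 0.051, adjusted p = 1.70e-09, edgeR), and it was called in every alternative that used the threshold of 1.5. FPPS, farnesyl diphosphate synthase, which serves sterol synthesis, had 212, 205 and 206 CPM in LOG OX1, against 229, 227 and 234 CPM in WT. This was a log2 fold change of -0.12 (SE 0.040, adjusted p = 0.0101, edgeR), and with upper-quartile factors FPPS did not pass the test (adjusted p = 0.786, edgeR).

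SQS, squalene synthase, the first enzyme committed to sterols, went up. It had 21.7, 23.3 and 26.5 CPM in LOG OX1, against 17.2, 17.8 and 15.3 CPM in WT. The groups did not overlap, and the log2 fold change was 0.53 (SE 0.096, adjusted p = 0.000115, edgeR), a 1.44-fold increase. SQS lay just under the fold threshold and was called with upper-quartile factors (log2 fold change 0.64) and without LOG OX1 replicate 1 (0.59), which gave 2 called increases in place of 1. GPS, FPPS and SQS together had 295 ± 3.98 CPM in LOG OX1 and 354 ± 1.17 CPM in WT (SD, n = 3 each; two-sided exact permutation test, p = 0.1).

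Among the 4 carotenoid synthesis genes with a symbol, the 2 earlier steps were higher and the 2 later ones lower. All 4 passed the test, where 35.7% of all genes tested were higher and 36.1% lower. Only 1 of the 4 was called (25%), beside 28.6% of all genes tested. Other steps of carotenoid synthesis were not examined. Phytoene synthase, PSY, condenses a pair of geranylgeranyl diphosphates into the first carotenoid. It had 205, 203 and 202 CPM in LOG OX1, against 174, 178 and 168 CPM in WT, with a log2 fold change of 0.25 (SE 0.040, adjusted p = 3.34e-05, edgeR). ZDS, zeta-carotene desaturase, had 56.3, 60.1 and 60.0 CPM in LOG OX1, against 46.4, 44.9 and 49.2 CPM in WT, with a log2 fold change of 0.35 (adjusted p = 3.65e-05, edgeR). Both were higher in 3 of 3 LOG OX1 libraries than in any WT library, by less than 1.5-fold.

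Both cyclases, which close the rings of lycopene, were lower. LCYB makes the beta rings of beta-carotene and of the xanthophylls derived from it, and it had 11.0, 13.0 and 12.1 CPM in LOG OX1, against 20.6, 20.2 and 20.2 CPM in WT. The log2 fold change was -0.73 (SE 0.097, adjusted p = 4.11e-06, edgeR), and the groups did not overlap. LCYE makes the epsilon ring of alpha-carotene and lutein. It had 40.3, 35.8 and 39.7 CPM in LOG OX1, against 47.9, 44.0 and 50.9 CPM in WT, with a log2 fold change of -0.29 (adjusted p = 0.00211, edgeR). There were 0.274, 0.364 and 0.304 LCYB counts for each LCYE count in the LOG OX1 libraries, against 0.429, 0.459 and 0.397 in the WT libraries. LCYB lost its call under glmTreat of edgeR, which asks whether a change exceeds 1.5-fold (adjusted p = 0.106). The 4 carotenoid genes together had 313 ± 0.801 CPM in LOG OX1 and 288 ± 0.833 CPM in WT (SD, n = 3 each; two-sided exact permutation test, p = 0.1). The sum differed by 24.4 CPM, LOG OX1 minus WT, and does not stand for each gene. By gene the difference was 29.8 CPM for PSY, 12.0 for ZDS, -8.30 for LCYB and -9.05 for LCYE.

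The xanthophyll cycle trades violaxanthin for zeaxanthin when light is in excess. VDE, violaxanthin de-epoxidase, forms zeaxanthin, and ZEP, zeaxanthin epoxidase, turns it back. ZEP had 69.3, 68.3 and 72.2 CPM in LOG OX1, against 115, 112 and 108 CPM in WT, so that the groups were well apart. Its log2 fold change was -0.65 (SE 0.045, adjusted p = 1.42e-09, edgeR). VDE had 202, 204 and 207 CPM in LOG OX1, against 182, 179 and 194 CPM in WT, a log2 fold change of 0.17 (SE 0.043, adjusted p = 0.00263, edgeR) that stayed far from 1.5-fold. There were 0.343, 0.335 and 0.349 ZEP counts for each VDE count in LOG OX1, against 0.634, 0.624 and 0.556 in WT, and the mean of this ratio in LOG OX1 was 0.566 times that in WT. ZEP was the called decrease nearest to the threshold, and it was not called with upper-quartile factors (log2 fold change -0.54) or by glmTreat (adjusted p = 0.107, edgeR).

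ELIP belongs to the early light-induced proteins, relatives of the light-harvesting antenna that are known from plants to accumulate under light stress. It had 71.5, 74.4 and 74.6 CPM in LOG OX1, against 135, 141 and 133 CPM in WT. The highest LOG OX1 library was far below the lowest WT library, and the log2 fold change was -0.87 (SE 0.044, adjusted p = 2.51e-11, edgeR). ELIP, VDE and ZEP together had 348 ± 5.60 CPM in LOG OX1 and 433 ± 1.08 CPM in WT (SD, n = 3 each; two-sided exact permutation test, p = 0.1).

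Hydrogen metabolism gave opposite changes in the enzyme and in its assembly factors. HYD1 is an iron hydrogenase, the enzyme that joins protons and electrons into hydrogen. It had 132, 142 and 145 CPM in LOG OX1, against 184, 187 and 169 CPM in WT, with a log2 fold change of -0.34 (adjusted p = 9.58e-06, edgeR). HYDEF and HYDG are assembly factors that build its active site. HYDEF had 126, 135 and 125 CPM in LOG OX1, against 93.9, 96.6 and 92.2 CPM in WT, with a log2 fold change of 0.47 (SE 0.046, adjusted p = 8.77e-08, edgeR). HYDG had 128, 133 and 142 CPM in LOG OX1, against 117, 125 and 118 CPM in WT, with a log2 fold change of 0.18 (SE 0.048, adjusted p = 0.00277, edgeR). None of the 3 overlapped between the groups, beside 74% of all genes tested that did not overlap, and none reached 1.5-fold.

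HYDG and HYDEF follow each other directly in the reference gene table, and they are the only neighbours among the 34 genes. Where the annotated genes touch, their shares of the reads are uncertain, since the strand setting of the counting is not given in the sources used here. There were 1.03, 1.07 and 1.02 HYD1 counts for each HYDG count in LOG OX1, against 1.58, 1.49 and 1.43 in WT. The second hydrogenase, HYD2, had 5, 9 and 3 counts in LOG OX1, against 11, 6 and 1 counts in WT, and no fold change is given. A difference in HYD2 was not detectable at this depth. The 4 genes together had 403 ± 15.2 CPM in LOG OX1 and 395 ± 14.7 CPM in WT (SD, n = 3 each), and the groups overlapped (two-sided exact permutation test, p = 0.5).

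**Figure D3:**
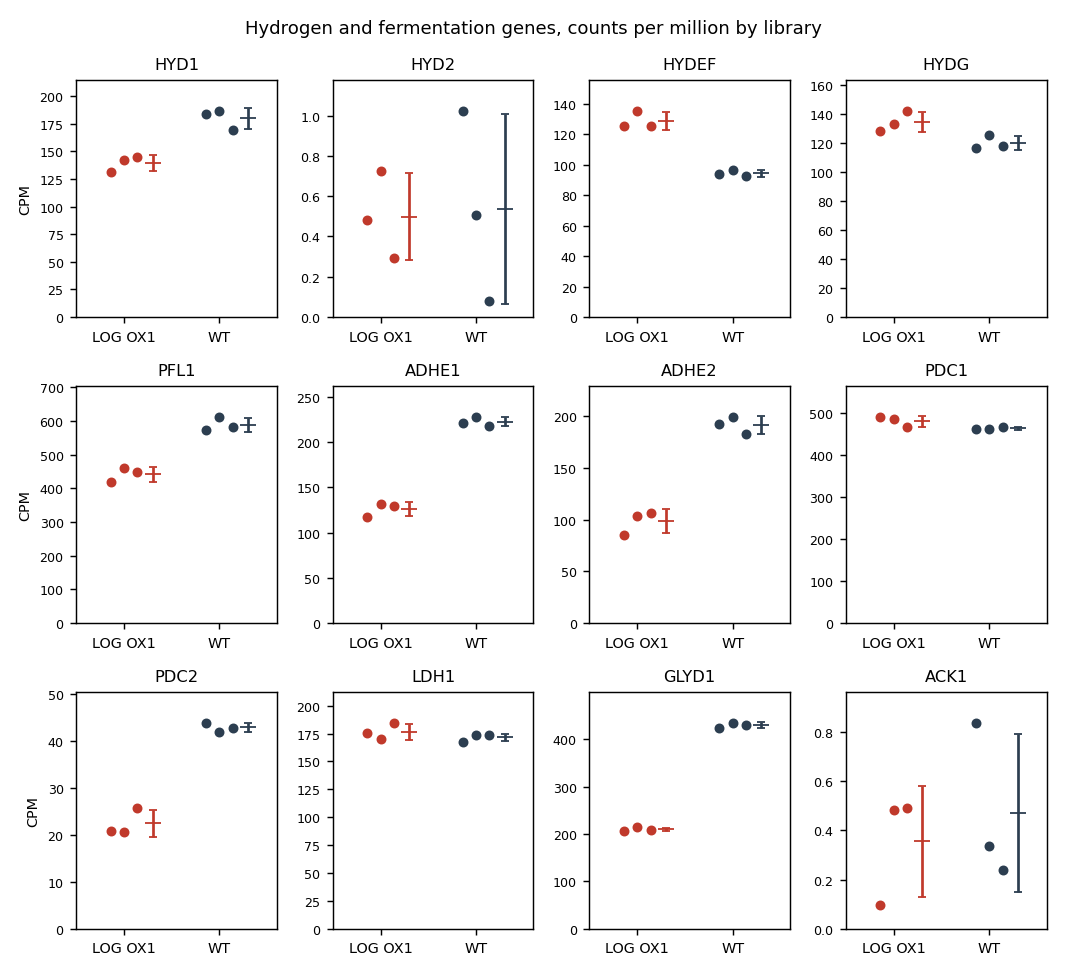
CPM in each library for the 12 hydrogen and fermentation genes, with LOG OX1 in red and WT in dark blue. Points are the 3 libraries of a group, and the bar beside them is the mean with its SD. ADHE1, ADHE2, PDC2 and GLYD1 are lower in all LOG OX1 libraries by more than 1.5-fold, while PDC1 and LDH1 overlap and HYD2 and ACK1 lie at about 1 CPM or less.

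Of the 7 tested fermentation genes, 4 were called, all lower in LOG OX1, beside 14.6% of all genes tested called lower. Without GLYD1, whose placing in this group is uncertain, 3 of 6 were called lower. The bifunctional aldehyde and alcohol dehydrogenases, which reduce acetyl-CoA to ethanol, are encoded by ADHE1 and ADHE2. ADHE1 had 117, 132 and 129 CPM in LOG OX1, against 221, 228 and 218 CPM in WT, with a log2 fold change of -0.80 (SE 0.048, adjusted p = 2.35e-10, edgeR). ADHE2 had 85.6, 104 and 106 CPM in LOG OX1, against 192, 199 and 182 CPM in WT, with a log2 fold change of -0.93 (SE 0.064, adjusted p = 1.22e-09, edgeR). Both genes were lower in every LOG OX1 library than in any WT library. LOG OX1 replicate 1 was the lowest of its group for both genes. The number of ADHE2 counts for each ADHE1 count was 0.731, 0.784 and 0.822 in LOG OX1, against 0.869, 0.874 and 0.835 in WT.

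The other route to ethanol starts at pyruvate decarboxylase, which releases acetaldehyde from pyruvate, and its 2 genes did not move together. PDC2 had 20.9, 20.7 and 25.8 CPM in LOG OX1, against 43.9, 42.0 and 42.9 CPM in WT, with a log2 fold change of -0.92 (SE 0.086, adjusted p = 6.16e-08, edgeR). PDC1 had 490.3, 485 and 465 CPM in LOG OX1, against 461, 461 and 467 CPM in WT, so that its groups overlapped (log2 fold change 0.07, adjusted p = 0.0937, edgeR). PDC1 passed the test with upper-quartile factors, at a log2 fold change of 0.19. There were 0.0426, 0.0426 and 0.0555 PDC2 counts for each PDC1 count in LOG OX1, against 0.0953, 0.0912 and 0.0918 in WT, and the mean in LOG OX1 was 0.506 times that in WT. The similarity of the copies ADHE1 and ADHE2, PDC1 and PDC2, and HYD1 and HYD2 was not examined, so reads shared between copies could move these ratios.

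PFL1, pyruvate formate lyase, which splits pyruvate into formate and acetyl-CoA, had 418, 460.1 and 448 CPM in LOG OX1, against 572, 612 and 582 CPM in WT. The groups did not overlap, and the log2 fold change was -0.39 (adjusted p = 7.88e-07, edgeR), short of 1.5-fold. GLYD1 had 207, 214 and 208 CPM in LOG OX1, against 424, 435 and 431 CPM in WT. It had the largest change of the 32 tested genes, with a log2 fold change of -1.01 (SE 0.039, adjusted p = 5.95e-13, edgeR), at the edge of a 2-fold decrease. The log2 fold change was -0.90 with upper-quartile factors and -0.999 without LOG OX1 replicate 1 or 3, and that of PDC2 was -1.02 without LOG OX1 replicate 3. The study's homology search labelled GLYD1 a putative D-lactate dehydrogenase, a flavin and iron-sulfur protein. Its placing among the fermentation genes rests on that label alone. Whether the enzyme forms or consumes lactate was not tested, so this placing is uncertain. The symbol can also be read as glycolate dehydrogenase, an enzyme of photorespiration, and without GLYD1 3 of 6 tested fermentation genes were called lower.

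LDH1, lactate dehydrogenase, had 175, 170.1 and 185 CPM in LOG OX1, against 168, 174 and 174 CPM in WT. These values overlapped, with a log2 fold change of 0.06 (SE 0.044, adjusted p = 0.214, edgeR), and LDH1 passed the test with upper-quartile factors at a log2 fold change of 0.17. ACK1, acetate kinase, which makes acetate and ATP from acetyl phosphate, had 1, 6 and 5 counts in LOG OX1, against 9, 4 and 3 counts in WT, too few for a comparison. The 8 fermentation genes together had 1556 ± 37.3 CPM in LOG OX1 and 2110.5 ± 35.8 CPM in WT (SD, n = 3 each; two-sided exact permutation test, p = 0.1). Without GLYD1, an alternative added after the values were seen, the sums were 1346 ± 34.6 CPM in LOG OX1 and 1681 ± 31.1 CPM in WT (SD, n = 3 each).

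**Figure D4:**
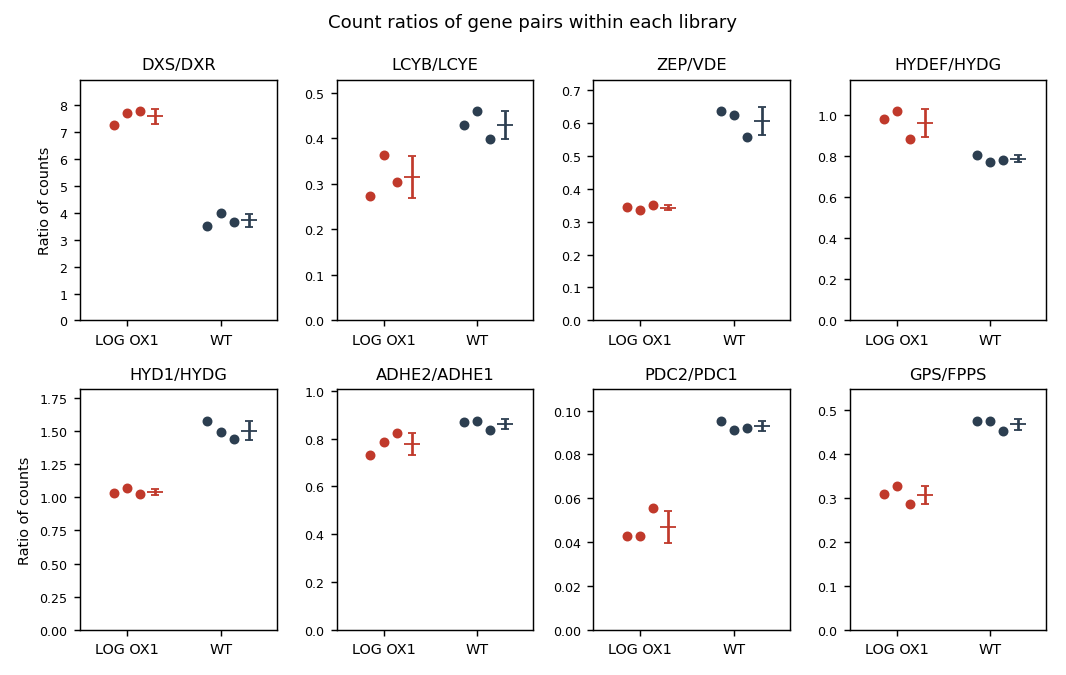
Ratio of the counts of paired genes within each library, with LOG OX1 in red and WT in dark blue, 3 libraries a group, and the mean with its SD beside the points. Pairs are neighbouring steps, opposing enzymes, copies of an enzyme, or genes of the hydrogenase and its assembly factors, and were picked after the values were seen. The ratio of DXS to DXR was 7.58 ± 0.285 in LOG OX1 and 3.72 ± 0.240 in WT (SD, n = 3 each), and that of GPS to FPPS was 0.307 ± 0.0207 in LOG OX1 and 0.467 ± 0.0132 in WT.

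The glycerol genes changed in opposite directions by less than 1.5-fold. GPD1, glycerol 3-phosphate dehydrogenase, which draws dihydroxyacetone phosphate from glycolysis, had 53.7, 54.1 and 51.6 CPM in LOG OX1, against 61.2, 64.6 and 61.3 CPM in WT. Its log2 fold change was -0.21 (SE 0.052, adjusted p = 0.00196, edgeR), and with upper-quartile factors it did not pass the test (adjusted p = 0.109, edgeR). GPP1, read as the phosphatase that frees glycerol, had 29.4, 29.8 and 29.8 CPM in LOG OX1, against 25.2, 21.8 and 24.2 CPM in WT. Its log2 fold change was 0.35 (SE 0.079, adjusted p = 0.000941, edgeR). The sum of both was 82.8 ± 1.32 CPM in LOG OX1 and 86.1 ± 0.557 CPM in WT (SD, n = 3 each; two-sided exact permutation test, p = 0.1), and its direction turned with upper-quartile factors (log2 ratio 0.077).

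RACK1, a WD-repeat scaffold protein that sits on the small ribosomal subunit, had 2125, 2154 and 2143 CPM in LOG OX1, against 2026, 1847 and 1925 CPM in WT. The LOG OX1 libraries lay within a narrow band above the WT libraries, with a log2 fold change of 0.17 (SE 0.037, adjusted p = 0.00057, edgeR). CHL, to which no role is given here, had 22.2, 19.8 and 19.0 CPM in LOG OX1, against 20.4, 22.1 and 23.9 CPM in WT, and the groups overlapped (log2 fold change -0.11, SE 0.091, adjusted p = 0.304, edgeR).

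**Figure D5:**
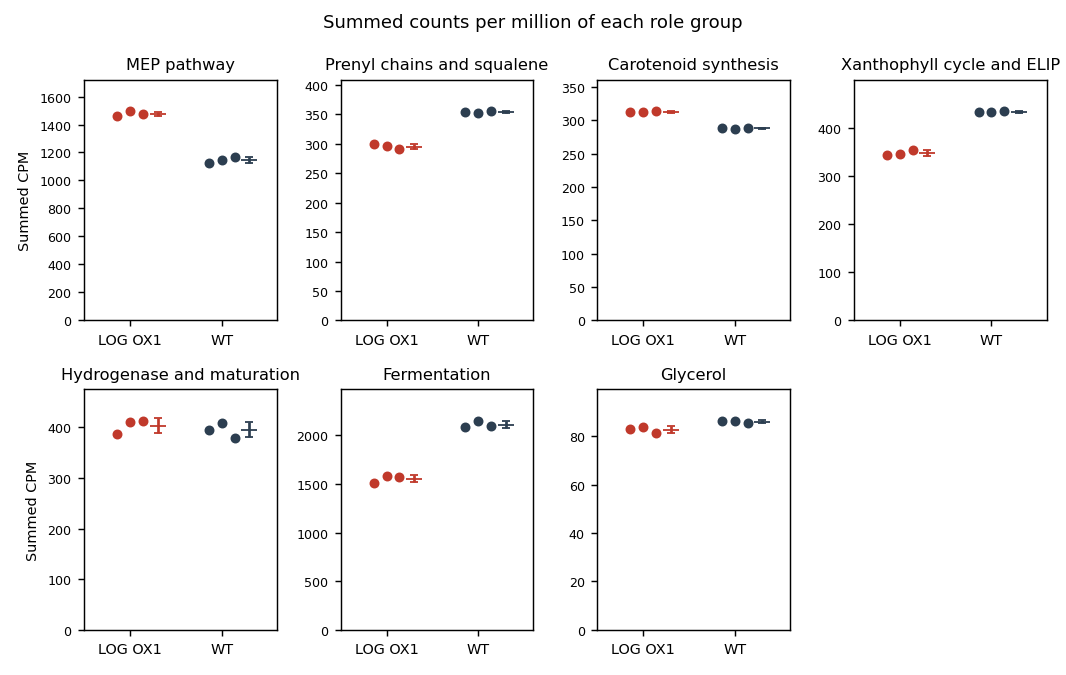
Summed CPM of each role group of at least 2 related genes, by library, with LOG OX1 in red and WT in dark blue. Points are the 3 libraries of a group, and the bar beside them is the mean with its SD. Fermentation, with GLYD1 included, sums to 1556 CPM in LOG OX1 and 2110.5 CPM in WT. The MEP pathway sums to 1476 CPM in LOG OX1 and 1146 CPM in WT. The hydrogenase group is the only one of the 7 whose groups overlap.

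Over the 7 role groups with a sum, the exact permutation p of 0.1 became 0.117 after Benjamini-Hochberg adjustment in the 6 that did not overlap. No group could therefore pass the threshold at this number of libraries. The role groups were also formed with earlier results of these data known, so their sums are given as a description. Because whole cultures were sequenced, a smaller share of cells using a gene and less of its RNA in each cell cannot be told apart.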

How the data were processed

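The 3 LOG OX1 and 3 WT libraries came from a directional kit and were sequenced paired-end. The authors trimmed reads with Trim Galore, aligned them with HISAT2 to the NC64A genome and counted them with HTSeq; the deposited values are these raw counts per gene, without normalization. Versions, annotation release and strand setting are not given in the sources used here. All 9625 gene IDs, and the symbols of all 34 genes, matched the RefSeq gene table (assembly version 1.0), which was used for gene order only. It holds no product names, so no list of further pathway genes could be formed. No sequence is shown.

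CPM were computed on library totals. Differential expression was tested in R 4.3.3 by edgeR 4.0.16, which builds on limma 3.58.1 (filterByExpr, minimum count 10; TMM; quasi-likelihood test, condition only; Benjamini-Hochberg adjustment over 9101 genes). The SE was obtained as |log2 fold change| over the root of the F statistic. Full statistics are given for the called genes and for the largest and smallest change of each role group. Summed levels used a two-sided exact permutation test. Alternatives were RLE, upper-quartile and no factors, DESeq2 1.42.0, the filter left out or set to 10 counts in all libraries, a replicate block, other fold thresholds, glmTreat, and each library left out. The fits were also run on simulated counts in which few genes changed, unlike these data. That run cannot show how they behave where most genes change. Replicates differed by more than counting noise (chi-squared per degree of freedom 2.40 to 7.26), so none was merged. The genes, role groups and ratios were chosen with earlier results of these data known. Figures used matplotlib 3.10.9.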

Additional observations from a re-analysis of the deposited data

How the results depend on the processing

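Over the 32 tested genes, 440 of the 448 alternative values kept both their direction and whether the gene was called. The direction could not differ under glmTreat, which gives the same log2 fold change as the main fit. Changes in the p-value alone are not counted here. With upper-quartile factors DXR, FPPS and GPD1 no longer passed the test, while CMK, IDS, PDC1 and LDH1 came to pass it. The counts of called genes moved mainly with the fold threshold. Without one, 11 genes with a symbol were higher and 14 lower (3249 and 3287 of all genes), and with a fold change of at least 2 there were 0 higher and 1 lower (580 and 613 of all genes). Upper-quartile factors gave 2 called increases in place of 1 and 7 called decreases, and 61% of all called genes were then higher, against 49% with TMM. With these factors the log2 fold change of CHL was 0.0051, of HDS 0.048 and of MCS 0.081, opposite in sign to the values with TMM, and none of these passed the test under either. Leaving out 1 library at a time gave between 1 and 2 called increases, with 2 only without LOG OX1 replicate 1, and 8 called decreases each time. The replicate numbers did not pair the samples (correlation of same-numbered deviations -0.01, 0.00 and -0.21), and with the replicate block 1 gene was called higher and 8 lower. The summed levels kept their direction with each library left out and on effective library sizes from TMM, RLE and upper-quartile factors, except the glycerol sum, whose log2 ratio was -0.06 on library totals and 0.077 with upper-quartile factors. RLE and upper-quartile sums were added after the data were seen. HYD2 and ACK1, with at most 11 counts a library, allow no statement about their change.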
